A study of Saccharomyces cerevisiae with 17 samples.

Results

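The RNA described here came from wild-type baker's yeast, Saccharomyces cerevisiae strain BY4741, a haploid of mating type MATa that carries his3-, leu2-, met15- and ura3- mutations. Cells were in mid-log growth in YPD, a rich medium of yeast extract, peptone and glucose, at 30 °C. Wild type contributed 2 of the 17 libraries of the series, whose RNA side holds 8 libraries from 4 genotypes and was made to study methylation of histone H3 at lysine 36. The authors averaged the 2 wild-type libraries, biological replicates per the series' design text, into 1 column of RPKM values, reads scaled by gene length and by the library's read total. Every gene with a name in that column was kept, which gave 5326 genes of 5328 rows, the other 2 rows being named R and holding 0.00317% of the sum. With a single averaged column there is no spread between replicates and the read depth is unknown, so levels, ranks and shares are given as descriptions and no test was made. The lowest value in any column of the table was 1.00, and a gene described below as having no row has none in the table as used here.

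A growing yeast cell spends most of its transcription on making ribosomes, and in glucose it takes most of its carbon through glycolysis to ethanol even when oxygen is present. Ribosome production needs ribosomal proteins, small nucleolar RNAs that guide the modification and cleavage of ribosomal RNA, and many assembly factors. Because of an ancient duplication of the whole genome, many of these proteins and metabolic enzymes are encoded by a pair of genes. A share below is a gene's percentage of the RPKM summed over all 5326 genes. RPKM is scaled by length, so such a share follows molecules more than reads, and a share of RPKM times annotated gene length, which lies closer to reads, is given where it changes the picture.

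A small set of genes held most of the RNA. The highest 11 genes held 25% of the summed RPKM, 67 genes (1.26% of all) held 50%, 217 held 75% and 903 held 90%. Values ran from 1.07 to 91207 RPKM around a median of 23.0, with quartiles at 10.8 and 60.4. The 14 genes at 10000 RPKM or more held 28.5% of the sum, and the next 193 genes, down to 1000 RPKM, held another 45.7%. In contrast, 3260 genes, 61.2% of all, lay between 10 and 100 RPKM and together held 9.57%, and the 1188 genes under 10 RPKM held 0.644%. The lower-ranking 50% of genes held 2.69% of the RNA on this scale. EST3, a telomerase subunit, IZH4, RPC17, NUP82 and RRN7 lay nearest the median.

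**Figure D1:**
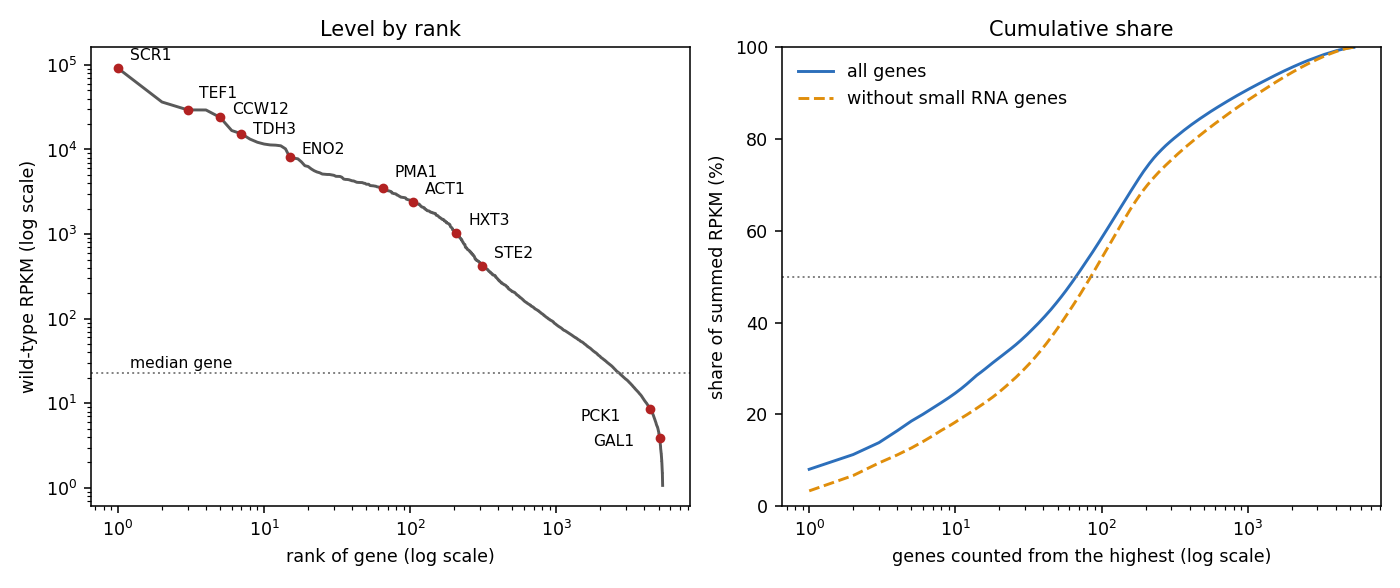
Left, wild-type RPKM (log scale) of all 5326 genes against rank (log scale), with some genes named as landmarks from SCR1 at 91207 RPKM to GAL1 at 3.88 RPKM and a dotted line at the median, 23.0 RPKM. Right, cumulative share of the summed RPKM in percent against the number of genes counted from the highest (log scale), which crosses the dotted 50% line at 67 genes, or at 85 genes once small RNA genes are left out (dashed).

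The upper end of the ranking was made up mostly of small non-coding RNAs and of the genes of ribosomal proteins, translation elongation factors and glycolytic enzymes. These 4 classes had 214 genes in the table and held 65.6% of the summed RPKM, or 54.5% when each value was multiplied by gene length. Adding cell wall proteins brought this to 254 genes and 70.3%, which left 29.7% to the other 5072 genes, whose median was 21.6 RPKM. Of the 40 highest genes, 14 encoded ribosomal proteins, 11 were small RNAs, 7 belonged to glycolysis and fermentation and 5 to translation elongation. Ribosomal protein genes then took over the ranking, with 54 of the first 100 genes and 110 of the first 200.

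The highest RNA was SCR1, the RNA of the signal recognition particle, which brings ribosomes making secreted proteins to the endoplasmic reticulum. SCR1 lies on chromosome V at 441987 to 442508 (sacCer3) and had 91207 RPKM, 8.06% of the sum. RPR1, the RNA of RNase P, which trims the leader from tRNA precursors, had 5063 RPKM, and NME1, the RNA of the related RNase MRP, had 4699 RPKM. The telomerase RNA TLC1 and all 6 annotated spliceosomal RNAs had no row, nor did any of the 299 annotated tRNAs, the 14 rRNAs or the 46 mitochondrial genes. The libraries had been depleted of rRNA before they were made. In all, 44 of 79 small RNA genes considered had a row and held 22.7% of the summed RPKM, of which SCR1 made up 35.5%. After weighting by length their share was 8.79%.

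Small nucleolar RNAs filled 5 of the 12 highest ranks. snR190, a C/D-box RNA, which is the type that directs 2′-O-methylation, was second overall at 36388 RPKM. snR190 lies at 139761 to 139950 on chromosome X, beside snR128 (U14) at 139566 to 139691, a C/D RNA needed for cleavage of the 18S rRNA precursor. The snR190 value was 6.86 times that of snR128, which had 5305 RPKM. Among H/ACA RNAs, the type that directs conversion of uridine to pseudouridine, snR10 had 16742 RPKM, snR30, which acts in 18S rRNA processing, had 11588 RPKM, snR37 had 11239 RPKM and snR83 had 7130 RPKM. The C/D RNAs snR4, snR63 and snR70 had 11313, 4164 and 2272 RPKM. At the low end of the H/ACA RNAs, snR81 had 345 RPKM, snR161 had 307 RPKM and snR85 had 262 RPKM.

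Few of the shortest snoRNA genes had a row. The genes were divided at 120 bases, a length chosen after the values were seen. Of 37 annotated snoRNA genes under 120 bases, 5 had a row and the highest of these was snR73 at 72.7 RPKM. Of 39 genes of 120 bases or more, 36 had a row, with a median of 2047 RPKM and a range of 87.4 to 36388. The other short ones were snR60 at 5.12, snR76 at 3.66, snR48 at 1.63 and snR64 at 1.32 RPKM. The lowest of the longer group, snR68, lay just above the highest of the shorter group. The 3 longer genes with no row were snR80 and the pair snR17A and snR17B, which encode U3, the C/D RNA at the centre of early rRNA cleavage. This split runs along the class boundary, since none of the H/ACA genes and 37 of the 47 C/D genes are under 120 bases. H/ACA RNAs had a row in 28 of 29 cases, with a median of 1898 RPKM, and C/D RNAs in 13 of 47, with a median of 578 RPKM. Among genes of 120 bases or more the C/D RNAs were not lower, with 8 of 10 having a row and a median of 3218 RPKM. The part that length itself has in these values was not tested.

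**Figure D2:**
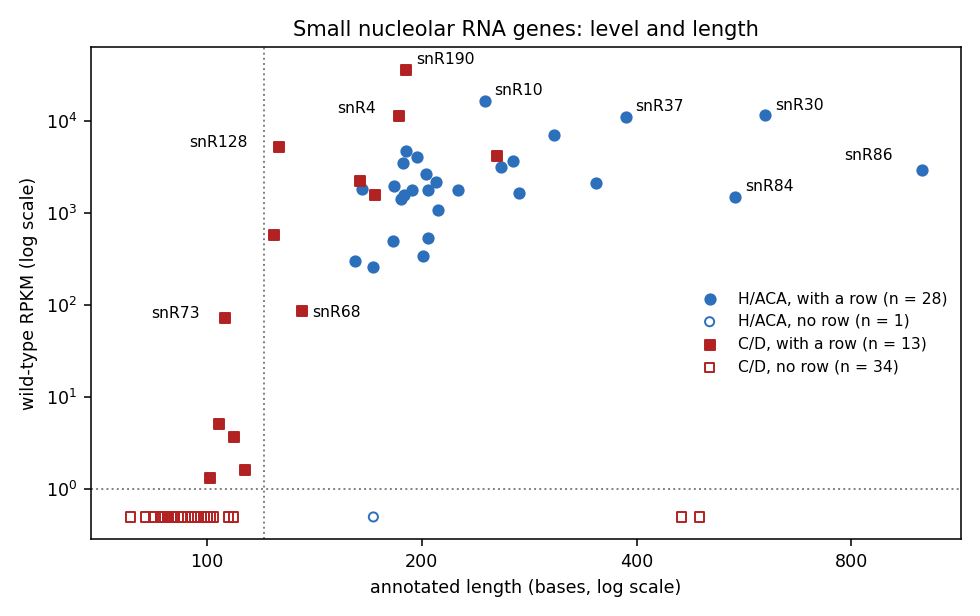
Wild-type RPKM (log scale) of small nucleolar RNA genes against annotated length in bases (log scale), with H/ACA genes in blue, C/D genes in red and genes with no row as open symbols at the foot. To the left of the 120-base line 5 of 37 genes have a row, none above 72.7 RPKM, and to its right 36 of 39 have a row. The line was placed after the values were seen.

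Some of these values cannot be separated from those of overlapping genes. YGL088W, an uncharacterized reading frame of chromosome VII at 345836 to 346201, ranked 13th with 11049 RPKM. It shares 216 bases with snR10 at 345986 to 346230, which is 59.0% of YGL088W and 88.2% of snR10. snR44, at 1098 RPKM, lies wholly within RPS22B, a ribosomal protein gene at 1435 RPKM. In these cases reads of either gene may have been counted for the other, as no source used here states the counting rule. Only genes with a row and an annotated position were compared, so names without a match were left out. Short snoRNA genes with no row that lie within other genes, such as snR24 in ASC1, snR18 in EFB1 and snR38 in TEF4, were left out.

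Cytosolic ribosomal protein genes formed the largest class by share. Of 137 genes, 134 had a row and together they held 28.1% of the summed RPKM, or 36.3% once the small RNAs were set aside. Their median was 2167 RPKM and 133 of the 134 stood at 100 RPKM or more. RPS31, which makes a small-subunit protein fused to ubiquitin, was highest at 7884 RPKM, and RPP0, the base of the ribosomal stalk, at 5088 RPKM and RPS27B at 5061 RPKM were also near the top. Others among the 40 highest genes of the table were RPS26A at 5006, RPS14A at 4950, RPL10 at 4815, RPL5 at 4806, RPL32 at 4427, RPL28 at 4390 and RPL2B at 4322 RPKM. The lowest were RPL15B at 70.1 RPKM, RPL22B at 131 RPKM and RPS9A at 177 RPKM, each the weaker copy of a pair. RPL41A, RPL41B and RPS10B had no row.

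The copies of a ribosomal protein pair were often unequal. Over 57 complete pairs the median fold between the higher and the lower copy was 1.68, with 21 pairs at 2-fold or more, 11 at 4-fold or more and 21 below 1.5-fold. The more expressed copy was the A gene in 29 pairs and the B gene in 28. RPL15 was the most unequal pair, with 3253 RPKM for RPL15A and 70.1 RPKM for RPL15B, a 46.4-fold difference. RPS9B had 3006 RPKM and RPS9A 177 RPKM, a 16.9-fold difference, and RPL22A had 2122 RPKM and RPL22B 131 RPKM, a 16.2-fold difference. RPL13 stood on the 2-fold line, with 1886 RPKM for RPL13B and 943 RPKM for RPL13A. Among the most even pairs were RPL1, RPS4, RPL35, RPS21, RPS6 and RPS23, and RPL1B at 4077 RPKM and RPL1A at 3992 RPKM differed by 1.02-fold. Coding sequences of many pairs are nearly identical, so reads that match both copies may have been split or counted for both, and near-equal values are uncertain for that reason.

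Summed over copies, the ribosomal proteins lay closer together than their genes did. Adding a weak copy to a strong one removes low values by itself. How much of the narrowing comes from that was not tested, so it does not show that the sums are balanced. Of 76 proteins with every gene in the table, 70 lay within 2-fold of their median of 4060 RPKM, against 98 of the 134 genes within 2-fold of the gene median. Pair sums had a median of 4101 RPKM (range 1725 to 8142, n = 57 proteins), close to the median of 3748 RPKM for proteins with a single gene (range 865 to 7884, n = 19), whereas a gene that is a member of a pair had a median of 1925 RPKM. If reads matching both copies were counted for both, the pair sums are too high, and this could not be checked. Proteins of the small subunit (median 3789 RPKM, n = 31) and of the large subunit (median 4164 RPKM, n = 45) had similar levels. Near the top were RPL1 at 8069 and RPS31 at 7884 RPKM. The lowest were RPL38 at 865, RPL39 at 1216, RPL29 at 1682 and RPS29 at 1725 RPKM. Annotated lengths are 237 bases for RPL38, 542 for RPL39 with its intron, 180 for RPL29 and 171 for both RPS29 copies, and whether length has a part in their low values was not tested.

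**Figure D3:**
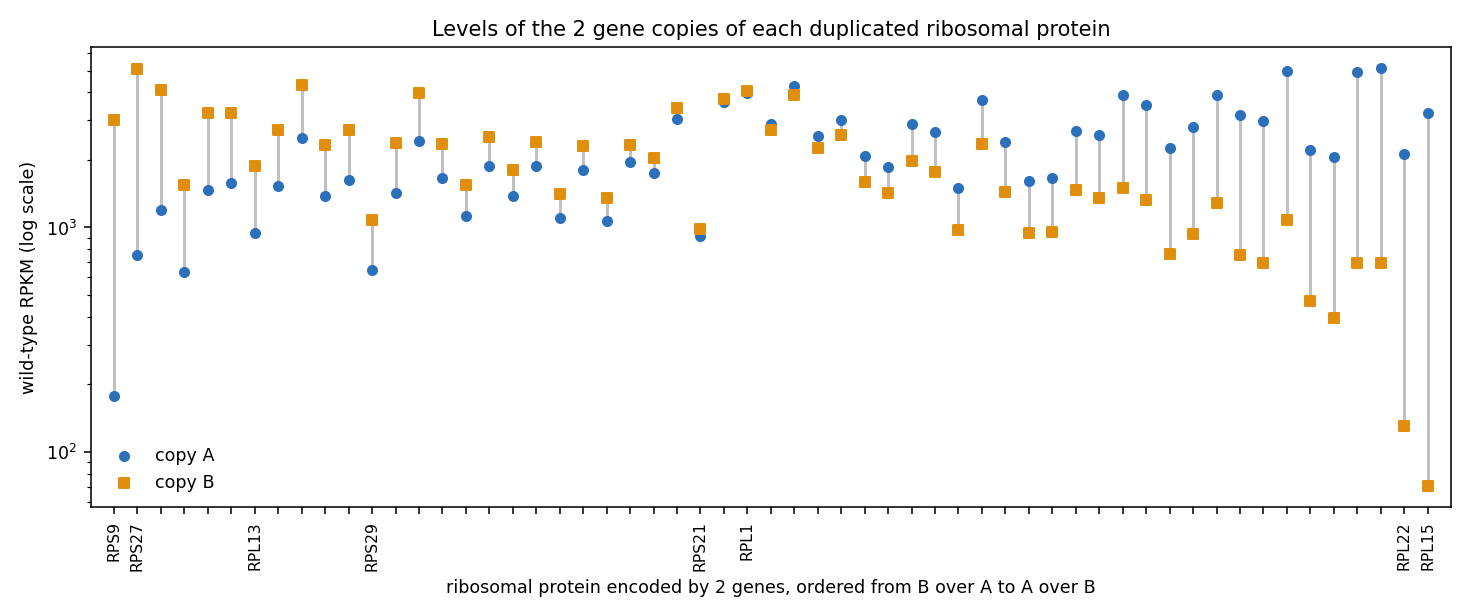
Wild-type RPKM (log scale) of copy A (circles) and copy B (squares) of 57 ribosomal protein pairs, each pair joined by a line and ordered from the largest excess of B over A to the largest excess of A over B, with names on some of the pairs given in the text. RPS9 at the left end and RPL22 and RPL15 at the right end are more than 10-fold apart, while the pairs in the middle nearly coincide.

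Translation elongation factors, which carry tRNAs to the ribosome and move it along the mRNA, held 7.70% of the summed RPKM in 12 genes, or 13.1% after weighting by length. TEF1 (chromosome XVI, 700594 to 701970) had 29348 RPKM and TEF2 (chromosome II, 477671 to 479047) had 29284 RPKM. Both encode the same protein, eEF1A, and together they held 5.18% of the sum. EFT2 at 6430 RPKM and EFT1 at 6289 RPKM encode elongation factor 2. YEF3, the fungal elongation factor 3, had 5418 RPKM, and its paralog HEF3 had 2.39 RPKM. HYP2, which encodes eIF5A in aerobic cells, had 2720 RPKM, while ANB1, the copy known for expression without oxygen, had 9.72 RPKM. The near-equal values of TEF1 and TEF2, and of EFT1 and EFT2, belong to almost identical coding sequences and cannot be assigned to either copy with certainty. If reads matching both copies were counted for both, these values, their ranks and every share that includes them are too high. This could not be checked.

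Initiation factors stood well below the elongation factors. All 28 genes of initiation and poly(A) binding had a row, with a median of 196 RPKM against 2886 RPKM for elongation. TIF1 at 2035 and TIF2 at 1884 RPKM, which both encode the helicase eIF4A, were highest, followed by PAB1, the poly(A)-binding protein, at 891 RPKM, the helicase DED1 at 618 and the cap-binding protein CDC33 at 591 RPKM. The lowest were DBP1 at 3.26, the eIF4G copy TIF4632 at 24.6 and GCD2, a subunit of eIF2B, at 31.3 RPKM. The 21 genes of tRNA synthetases formed a narrow band, 20 of them at 100 RPKM or more, from DED81 (asparagine) at 560, KRS1 (lysine) at 473 and GUS1 (glutamate) at 418 RPKM down to GLN4 (glutamine) at 135 RPKM. GRS2, the second glycine enzyme, was the exception at 6.56 RPKM, against 392 RPKM for GRS1.

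Genes that assemble the ribosome were far below those of its proteins. The 65 assembly genes with a row, of 67, had a median of 68.5 RPKM and held 0.698% of the sum. SNU13, a protein of both C/D snoRNPs and the spliceosome, led at 846 RPKM, ahead of the nucleolar protein NSR1 at 640, TIF6, which keeps the subunits apart, at 514, the helicase DBP2 at 464 and the methyltransferase NOP1 at 457 RPKM. NOP16 at 13.5, NOP8 at 15.3 and NOP14 at 16.2 RPKM were lowest. Nuclear RNA polymerase subunits were similar in level, with a median of 61.3 RPKM over 29 of 31 genes. The highest were RPB8 at 346 and RPO26 at 283 RPKM. The 2 large polymerase I subunits RPA135 and RPA190 had 264 and 233 RPKM, and RPC40, shared by polymerases I and III, had 250 RPKM. RPC17, RPC31 and RPC10 were lowest, at 23.0, 24.3 and 24.5 RPKM.

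Glycolysis and ethanol fermentation held 7.08% of the summed RPKM, or 9.36% weighted by length, with 24 of 25 genes in the table and a median of 773 RPKM. The levels were uneven along the pathway. Glyceraldehyde-3-phosphate dehydrogenase had the highest sum, 18992 RPKM over its 3 genes, followed by pyruvate decarboxylase at 13274 and aldolase at 12162 RPKM. The lowest sums were at the entry, with 956 RPKM for the 3 hexose kinases, 957 RPKM for the 2 phosphofructokinase subunits and 1234 RPKM for phosphoglucose isomerase. The highest step was 19.9 times the lowest. Lower glycolysis was higher than the entry at every step, from 2848 RPKM for phosphoglycerate kinase and 4472 for the mutase to 8748 for enolase and 7768 for pyruvate kinase, and alcohol dehydrogenase (ADH1 and ADH2) reached 6533 RPKM.

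**Figure D4:**
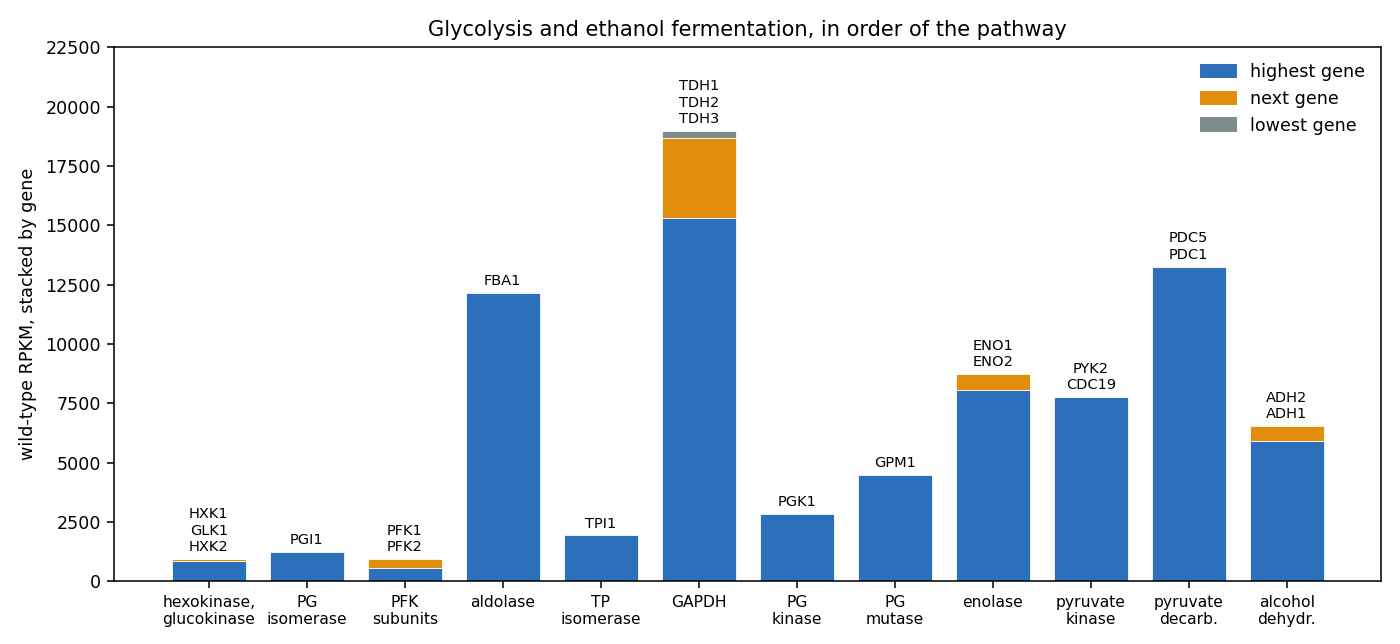
Wild-type RPKM at each step of glycolysis and ethanol fermentation, in pathway order, as bars stacked by gene. The bars reach 12162 RPKM at aldolase (FBA1), 18992 RPKM at GAPDH and 13274 RPKM at pyruvate decarboxylase, and stay at or below 1234 RPKM over the first 3 steps.

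At nearly every step with several isozymes, a single gene supplied most of the RNA. TDH3 had 15308 RPKM, TDH2 had 3360 RPKM and TDH1 had 324 RPKM, so TDH3 gave 80.6% of the sum. PDC1 had 13260 RPKM and PDC5 had 13.5 RPKM, a 983-fold difference, and PDC6 had no row. CDC19, the main pyruvate kinase, had 7760 RPKM and PYK2, a copy known to act under low glycolytic flux, had 8.26 RPKM. ENO2 had 8045 RPKM and ENO1 702 RPKM. HXK2, the hexokinase of glucose growth, had 844 RPKM, the glucokinase GLK1 had 82.5 RPKM and HXK1 had 29.2 RPKM. ADH1 had 5890 RPKM, and ADH2, whose gene is known to be repressed by glucose, had 643 RPKM. ADH3, the mitochondrial enzyme, ADH4 and ADH5 lay lower, with ADH5 at 9.32 RPKM. The coding sequences of ADH1 and ADH2 are similar, and no source used here states how reads matching both were counted. The same limit may apply to the other isozymes named here, TDH3 and TDH2 included, whose sequences were not compared.

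Unequal isozymes were also found outside glycolysis. Over all 61 families, the glycolytic ones included, with at least 2 members in the table, the median fold between the highest and the next member was 3.41, 40 families were at 2-fold or more, 18 at 10-fold or more and 9 at 100-fold or more. The widest were YEF3 over HEF3 at 2269-fold, PDC1 over PDC5, CDC19 over PYK2 at 940-fold, and PMA1 over PMA2, the plasma membrane proton pumps, at 464-fold. Next came the transketolases TKL1 over TKL2 at 329-fold, HYP2 over ANB1 at 280-fold, the peroxiredoxins TSA1 over TSA2 at 255-fold, OYE2 over OYE3 at 223-fold and the ribonucleotide reductase subunits RNR1 over RNR3 at 125-fold. These folds depend on low values of the minor copy, whose error is unknown. Counting only the families with every listed member at 10 RPKM or more left 24 at 2-fold or more, out of fewer than the 61 families.

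Other families were nearer to balance. There were 14 with less than 1.5-fold between the highest and the next member, among them the S-phase cyclins CLB6 at 14.08 and CLB5 at 14.06 RPKM, the glycerol-3-phosphate dehydrogenases GPD2 at 109 and GPD1 at 101 RPKM, the isopropylmalate synthases LEU9 at 149 and LEU4 at 143 RPKM, and the ribosome-bound chaperones SSB1 at 4076 and SSB2 at 3425 RPKM. HXT7 at 147 and HXT6 at 143 RPKM are near-identical hexose transporters and may share reads in the same uncertain way as TEF1 and TEF2. The histone pairs differed in balance: HTB1 had 865 RPKM and HTB2 648 RPKM, while HTA1 had 740 RPKM and HTA2 247 RPKM. The sums were 1513 RPKM for histone H2B and 987 RPKM for H2A. HTZ1, the variant H2A.Z, had 72.3 RPKM and the linker histone HHO1 66.3 RPKM. HHT1, HHT2, HHF1 and HHF2, the genes of histones H3 and H4, had no row. The glutaredoxins GRX2 over GRX1, CIT1 over CIT2, MDH3 over MDH2, TUB1 over TUB3 and ASN2 over ASN1 were also under 1.5-fold.

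Other families lay between these ends. Pairs from 1.5-fold to 4-fold included IMD4 over IMD3, NTH1 over NTH2, SSA2 over SSA1, LYS20 over LYS21, TRX1 over TRX2, ADE17 over ADE16, CLN2 over CLN1, HMG1 over HMG2, CLB1 over CLB2, SHM1 over SHM2, SER33 over SER3, GSY2 over GSY1, BAT1 over BAT2, ARO4 over ARO3 and RAS1 over RAS2. The folds ran from 7.03 upwards, and stayed below that of the enolases, for TEF4 over CAM1, SAM1 over SAM2, PGM1 over PGM2, TIF4631 over TIF4632, URA7 over URA8, HSC82 over HSP82, TPM1 over TPM2, VPH1 over STV1, MFA2 over MFA1 and COX5A over COX5B. The more one-sided among metabolic pairs included the glucan synthase FKS1 at 401 RPKM over GSC2 at 30.1 RPKM, GPP1 at 1323 RPKM over GPP2 at 43.0 RPKM, and the ADP/ATP carrier PET9 at 361 RPKM over AAC1 at 8.07 RPKM. ACS2 over ACS1, GND1 over GND2 and GDH1 over GDH3 were 21.6-fold, 31.3-fold and 38.8-fold apart. Of the cytochrome c genes, CYC1 had 63.2 RPKM and CYC7 had no row. In several of these pairs the minor copy is known as the one used on other carbon sources, under stress or at low oxygen.

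Cell wall proteins held 4.70% of the summed RPKM in 40 of 41 genes, and 64.0% of that was in 2 genes. CCW12 (chromosome XII, 369697 to 370098), a mannoprotein of the growing wall, ranked 5 among all genes at 23932 RPKM, and CWP2 had 10174 RPKM. HSP150 followed at 2546, SED1 at 2525 and UTH1 at 1762 RPKM. The flocculins, adhesins of clumping and filamentous cells, were at the other end, with FLO11 at 1.85, FLO9 at 4.47 and FLO1 at 4.86 RPKM, together with DAN4, a wall protein of anaerobic cells, at 4.57 RPKM. DAN1, also of anaerobic cells, had no row.

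At the plasma membrane, PMA1, the proton pump that drives nutrient uptake, had 3481 RPKM. Among hexose transporters, HXT3 had 1036 RPKM, HXT2 549 RPKM, HXT1 289 RPKM, HXT4 31.9 RPKM and HXT5, known from slow-growing cells, 6.99 RPKM. HXT8 to HXT11, HXT13 to HXT17 and the galactose transporter GAL2 had no row. HXT3 and HXT1 are the low-affinity carriers of high glucose, and HXT3 was 3.58 times HXT1. HXT2, which is not a carrier of that kind, lay above HXT1, and HXT7 and HXT6 had 147 and 143 RPKM. In the list for nitrogen and peptide uptake, the amino acid permeases TAT1, BAP2, GNP1 and MUP1 had 253, 191, 131 and 129 RPKM, and the asparaginase ASP1 had 243 RPKM. Genes for the use of allantoin and urea were among the lowest of that group, with DAL3 at 3.99 and DUR3 at 3.69 RPKM, and PUT1, of proline use, had 2.35 RPKM. Among mineral uptake and storage genes, CUP1-1 and CUP1-2, identical metallothionein copies, carried the same value of 624 RPKM, the phosphate transporter PHO84 had 611 RPKM, the polyphosphate synthesis subunit VTC1 399 RPKM and the acid phosphatase PHO3 378 RPKM. CTR3, FRE2 and FRE3, of copper and iron uptake, had 2.45, 3.93 and 4.48 RPKM.

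The ribosome-bound chaperones SSB1 and SSB2 led the chaperone list, and some heat-inducible members such as SSA4 lay far below them. All 29 chaperone genes had a row and held 1.96% of the sum, with a median of 327 RPKM. SSB1 and SSB2, given above, were followed by the cytosolic Hsp70 genes SSA2 at 2779 and SSA1 at 1782 RPKM and the cyclophilin CPR1 at 1767 RPKM. The heat-inducible Hsp70 SSA4 had 8.13 RPKM, the mitochondrial disaggregase HSP78 4.92 RPKM and SSE2 12.3 RPKM. HSC82, the constitutive Hsp90, had 942 RPKM and HSP82, the inducible copy, had 106 RPKM. A separate list of heat and stress genes had a median of 15.7 RPKM over 27 of 29 genes. UGP1 at 142 RPKM, GRE2 at 108 RPKM and HSP30 led that list, the only members at 100 RPKM or more, and genes of glycogen metabolism ended it, with GLG1 at 3.45, GSY1 at 5.06 and GPH1 at 5.13 RPKM.

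Antioxidant enzymes covered a wide range of levels. AHP1, a peroxiredoxin, had 1901 RPKM, TSA1 had 1839 RPKM, the copper-zinc superoxide dismutase SOD1 had 911 RPKM, the thioredoxin reductase TRR1 had 383 RPKM and TRX1 had 325 RPKM. CTT1, the cytosolic catalase, had 6.61 RPKM, CTA1, the peroxisomal one, had 5.63 RPKM and the glutathione peroxidase GPX1 had 4.52 RPKM. The whole list of 25 genes had a median of 61.3 RPKM.

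The median of each biosynthetic list lay above that of all genes, with single members far below it. Sterol and fatty acid genes had a median of 179 RPKM, with all 32 genes in the table and none under 10 RPKM, and OLE1, the fatty acid desaturase, led them at 801 RPKM. ACB1, the acyl-CoA binding protein, followed at 551, the sterol desaturase ERG3 at 505 and the fatty acid synthase subunit FAS1 at 501 RPKM, and HMG2, ERG12 and ERG7 were lowest at 34.0, 36.1 and 42.7 RPKM. Nucleotide synthesis had a median of 162 RPKM over 38 of 39 genes, with IMD4 at 611 and GUA1 at 546 RPKM, both of GMP synthesis, and RNR2 at 485 and RNR4 at 468 RPKM, the small subunits of ribonucleotide reductase, highest. RNR3 at 2.36, URA10 at 4.54 and the thymidylate synthase CDC21 at 15.3 RPKM were lowest. Amino acid synthesis had 83 of 90 genes in the table and a median of 96.5 RPKM. ILV5 and ILV3, of branched-chain synthesis, had 1505 and 683 RPKM, GLY1, a threonine aldolase, 799 RPKM, SAH1, of the methyl cycle, 779 RPKM and CYS3, of cysteine synthesis, 659 RPKM. The sulfate assimilation and homocysteine genes MET2, STR3 and MET16 were lowest at 4.27, 4.36 and 5.58 RPKM. Vitamin and cofactor synthesis had a median of 46.3 RPKM, led by HEM1, the first enzyme of heme synthesis, at 253 RPKM, and by RIB3 and RIB4, of riboflavin synthesis, at 173 and 166 RPKM. The biotin and thiamine genes BIO5, THI4 and BIO3 were lowest there at 1.61, 2.17 and 3.67 RPKM. In the pentose phosphate pathway TKL1 had 892, TAL1 382, GND1 301 and RPE1 272 RPKM, the entry enzyme ZWF1 had 115 RPKM, and the minor copies TKL2, NQM1, SOL4 and GND2 lay under 10 RPKM. ALD6 at 1330 RPKM and GPP1 at 1323 RPKM led the genes of acetate and glycerol formation, and ACS1 at 6.89 and ALD4 at 32.8 RPKM, both of growth on other carbon sources, were lowest.

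**Figure D5:**
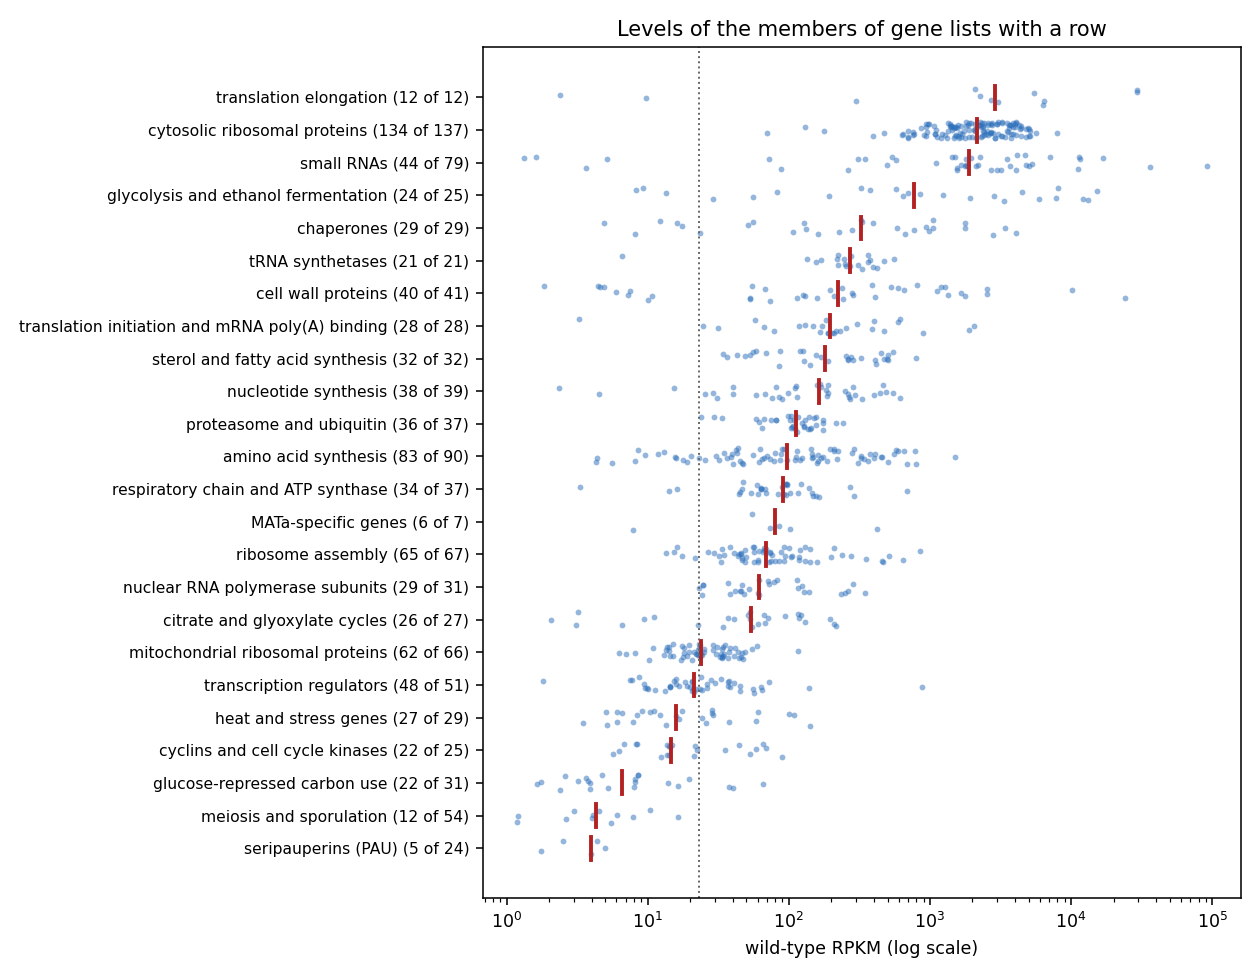
Wild-type RPKM (log scale) of the members of the main gene lists that have a row, as points, with the list median as a bar and the median of all genes, 23.0 RPKM, as a line. Elongation factors and ribosomal proteins have the highest medians among protein-coding lists, at 2886 and 2167 RPKM, and seripauperins, meiotic and glucose-repressed genes the lowest, at 3.94, 4.32 and 6.57 RPKM.

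Mitochondrial and respiratory genes were far below glycolysis in their list medians. The respiratory chain and ATP synthase list had a median of 90.8 RPKM over 34 of 37 genes and held 0.335% of the sum. ATP2, the beta subunit of ATP synthase, had 682 RPKM, ATP1, the alpha subunit, 288 RPKM, and the external NADH dehydrogenase NDE1 272 RPKM. NDE2, COX5B and NDI1 were lowest at 3.30, 14.2 and 16.2 RPKM. The citrate and glyoxylate cycle genes had a median of 54.2 RPKM over 26 of 27 genes, with ACO1 at 214, IDP1 at 208, IDH2 at 197, SDH3 at 130 and LPD1 at 121 RPKM highest. The minor citrate synthase CIT3 had 2.05 RPKM, the malate synthase MLS1 3.09 RPKM, ICL2 3.19 RPKM and the isocitrate lyase ICL1 9.39 RPKM. Mitochondrial ribosomal protein genes had a median of 23.7 RPKM over 62 of 66 genes, near that of all genes. MRP4 followed at 59.5 and RSM7 at 55.0 RPKM, MRP35 was lowest at 6.22 RPKM, and of the 62 only MRPS12, at 116 RPKM, exceeded 100 RPKM.

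Members of the same protein complex differed in how close their levels lay. The 14 genes of the 20S proteasome core ran from 61.6 RPKM for PUP2 to 176 RPKM for PRE10, a 2.86-fold range around a median of 140 RPKM. PRE3 and PUP3, both beta subunits, had 176 and 174 RPKM. Over the whole proteasome and ubiquitin list, with 36 of 37 genes in the table, the ubiquitin-conjugating enzyme UBC4 was highest at 240 RPKM and RPN4, the transcription activator of proteasome genes, was lowest at 23.7 RPKM. The vacuolar proton pump was spread more widely. Its subunits present in several copies per pump had a median of 411 RPKM, with VMA3, of the membrane ring, at 1117 RPKM and VMA10 at 131 RPKM. The 7 single-copy subunits considered had a median of 217 RPKM and ran from 124 RPKM for VMA8 to 237 RPKM for VMA13. VMA9, which is not among these 7, had 255 RPKM. In mitochondrial ATP synthase, ATP1 and ATP2, which are present in several copies per enzyme, lay above all 11 of the other subunits considered, whose median was 94.8 RPKM and whose highest was ATP7 at 163 RPKM. RNA polymerase II subunits, several of which are shared with the other polymerases, spanned 14.1-fold, from RPC10 at 24.5 to RPB8 at 346 RPKM.

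The median of the regulators lay near that of all genes, and that of the cell cycle genes lay below it. The 48 transcription regulators with a row, of 51, had a median of 21.2 RPKM. Within this list GCN4, the activator of amino acid synthesis, stood apart at 877 RPKM, with the corepressor TUP1 next at 139 RPKM, MCM1 at 71.8, TYE7, which acts on glycolytic genes, at 64.9 and MIG2, a repressor of glucose-repressed genes, at 63.9 RPKM. MET28 at 1.80, INO4 at 7.51 and HAP5 at 7.73 RPKM were lowest, and CBF1, MET32 and SPT15 had no row. HAC1, an activator that the list leaves out, had 1312 RPKM. GCN4 is known for control at translation, and a high RNA level does not give its protein level. Of the cyclins and cell cycle kinases, 22 of 25 genes had a row, with a median of 14.6 RPKM and none at 100 RPKM. The G1 cyclins CLN3 and CLN2 led at 89.5 and 68.7 RPKM, followed by the inhibitors FAR1 at 65.6 and SIC1 at 58.8 RPKM and the kinase CDC28 at 52.7 RPKM. MBP1 and SWI4, the DNA-binding subunits of the G1/S activators, had 5.66 and 6.82 RPKM and the kinase CDC7 had 6.21 RPKM, and CLB3, CKS1 and SWI6 had no row. In a culture that is not synchronized, the level of a periodic gene is an average over the cycle. In the cytoskeleton list ACT1, actin, had 2383 RPKM, profilin PFY1 485 RPKM, cofilin COF1 260 RPKM and the tubulins TUB2 298 and TUB1 230 RPKM, and MYO1 was lowest at 6.15 RPKM.

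The labelled mating type was compared with its marker genes. Of the 7 MATa-specific genes, 6 had a row: the alpha-factor receptor STE2 at 418, the agglutinin subunit AGA2 at 102, the protease BAR1 at 84.6, the a-factor precursor MFA2 at 73.9, its exporter STE6 at 55.0 and the other precursor MFA1 at 7.80 RPKM. ASG7 had no row. MFA1 and MFA2 are short, with 111 and 117 annotated bases. Of 4 genes specific to MATalpha cells, SAG1 had 12.5 RPKM and the other 3 had no row. MATALPHA2 and HMLALPHA2, identical copies in the annotation with the latter in a silent cassette, carried the same value of 8.97 RPKM. That value cannot be assigned to either copy, so the MATALPHA2 row does not show an active alpha gene in this MATa strain. Pheromone signalling and haploid genes had a median of 28.8 RPKM, led by FAR1, RME1 at 54.6 and the G-protein subunit STE4 at 53.2 RPKM, and the kinases FUS3, STE7 and STE11 had 45.8, 11.1 and 9.54 RPKM. Of the auxotrophic markers, LEU2, MET17 (MET15) and URA3 had no row, which is not itself a sign of low RNA. HIS3, for which a low value or none was looked for, had 61.2 RPKM. It ranked 1319, above the median of all genes.

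Most genes listed as glucose-repressed had low values or no row. Of 31, a list that leaves out ADH2 (643 RPKM, above), 22 had a row, with a median of 6.57 RPKM, 16 of them under 10 RPKM and none at 100 RPKM. GAL80, the repressor of the galactose genes, was highest at 65.4 RPKM, followed by ATO3 at 39.9, the invertase SUC2 at 37.8, YAT1 at 19.6 and the regulator ADR1 at 16.3 RPKM. The gluconeogenic enzymes FBP1 and PCK1 had 13.8 and 8.57 RPKM and the galactokinase GAL1 had 3.88 RPKM. MAL12 and MAL32, maltases, were lowest at 1.63 and 1.74 RPKM, and GAL7, GAL10, CAT8 and SIP4 were among those with no row. Meiotic genes were rarer still in the table, with 12 of 54 having a row and a median of 4.32 RPKM. REC107 was highest at 16.3 RPKM, CST9 had 10.4 RPKM, the meiotic kinase IME2 had 2.65 RPKM, SPO22 was lowest at 1.19 RPKM, and IME1, NDT80 and SPO11 had no row. Only 5 of 24 seripauperin (PAU) genes had a row, from PAU23 at 4.97 RPKM to PAU2 at 1.74 RPKM. The lowest rows of all were PUL3 at 1.13 RPKM, YKR047W, the pectinase PGU1 and YAR047C, each at 1.09 RPKM to 3 digits, and YLR154W-A at 1.07 RPKM. Because a gene with no row enters none of these medians, the medians of the low lists describe the members listed and not the whole lists. Having no row is not itself a sign of low RNA, as the histone H3 and H4 genes and the U3 genes also had none. Counts of protein-coding genes with a row are given under Other observations.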

How the data were processed

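The 2 wild-type libraries were made from hot-phenol RNA treated with DNase I, with a stranded kit and after removal of rRNA, per the labels' protocols. CASAVA, TopHat2 2.0.14 and the build sacCer3 are listed in the submitters' processing notes. The authors deposited RPKM values in 4 columns, each an average over the libraries of a genotype per the file headers, of which the wild-type column was used. How RPKM was computed (tool, gene models, strand, reads with several matches) was not given in any source used here. Depth and counting error are unknown, since averages of RPKM keep no counts, and error between libraries could not be computed. Where a few RNAs are very abundant, the RPKM of every other gene is lower.

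Of 5328 rows, 2 were named R and left out, and 3 lines had been emptied for this work. RefSeq's gene table of R64, which is the build sacCer3, supplied symbols, positions and lengths. 5176 names matched and 150, with 0.531% of the summed RPKM, did not. Annotated lengths include introns. Ranks, shares, list medians and folds between copies were computed with Python 3.11.15, pandas 2.3.3, numpy 2.4.6 and scipy 1.17.1, and drawn with matplotlib 3.10.9. The scripts were tested on simulated data. No pseudocount or filter was applied.

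Genes named in the text were drawn from the 40 highest, the 5 highest and 3 lowest members of lists, isozyme families, the 8 most and 8 least unequal ribosomal protein pairs, the 10 highest genes in no list, the 5 nearest the median and the 5 lowest. Others named were chosen after their values were seen, and a few genes the rule takes are not reported here. The members and lists were chosen with earlier results of these data known, and the snoRNA classes and 120-base division, pathway steps, complexes and gene families found by name pattern were chosen after the values were seen.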

Additional observations from a re-analysis of the deposited data

How the results depend on the processing

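Multiplying RPKM by gene length gave 22.6% for the 10 genes highest on that scale, 6 of which are among the 10 highest by RPKM. Those 10 held 24.7% by RPKM and 19.5% by RPKM times length. The same scale gave 8.79% for small RNAs, 23.2% for ribosomal proteins, 9.36% for glycolysis and 13.1% for elongation. Leaving out small RNA genes gave 18.3% for the 10 highest, 36.3% for ribosomal proteins, 9.16% for glycolysis, 9.97% for elongation and a median of 22.8 RPKM. Leaving out names without a match gave 24.8% for the 10 highest, 22.8% for small RNAs, 28.2% for ribosomal proteins, 7.12% for glycolysis, 7.74% for elongation and a median of 23.6 RPKM. A minimum of 10 RPKM gave 24.8%, 22.9%, 28.3%, 7.12% and 7.75% for the same classes and a median of 33.8 RPKM. Counting rows of equal value and length once gave 7.09% for glycolysis and 7.71% for elongation. Isozyme families at 2-fold or more numbered 24 when every member had to reach 10 RPKM, against 40 without that minimum. The minimum also lowered the number of families counted. The other 16 of 41 values computed kept within 1.5 times for counts, or to 3 digits for levels and shares. No paired analysis was possible because the table has 1 averaged column and no column per library, and leaving out a library was not run for the same reason. Leaving out ribosomal protein pairs of identical protein was not run, as no protein sequences were used here. Depth is unknown, so low values and folds over low copies have no stated error.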

Other observations

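Several rows with high values belonged to none of the gene lists. The 1095 genes in a list held 82.3% of the summed RPKM. Outside them, after YGL088W, ASC1, the ribosome-bound homologue of RACK1, had 4245 RPKM, the small protein gene YDR524C-B (chromosome IV, 1489598 to 1489798) had 3716 RPKM and TMA19, the yeast TCTP, had 3302 RPKM. MRH1, a plasma membrane protein, had 1759 RPKM, YNL190W had 1742 RPKM and NCW1, a small wall protein, had 1206 RPKM. HAC1, a transcription activator whose mRNA is spliced outside the nucleus in the unfolded protein response, had 1312 RPKM. YDR154C had 1470 RPKM and YLR154W-E had 1337 RPKM, and neither name matched the RefSeq table. With no match they had no position here, so their overlap with other genes was not tested. Whether these values belong to RNAs of their own was therefore not shown. YLR154W-A, listed beside YLR154W-E by name, was the lowest row of the table at 1.07 RPKM.

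Some gene families known from the chromosome ends differed in level. All 8 Y' helicase genes (YRF1) had a row between 125 and 155 RPKM, and these copies are near-identical and may share reads. COS genes, of a family of membrane proteins that guide sorting to the vacuole, ran from COS111 at 5.43 RPKM to COS3 at 85.0 and COS2 at 85.0 RPKM in 10 of 12 cases. Away from the ends, the 4 ASP3 copies of chromosome XII, which encode the secreted asparaginase, had 205 RPKM each. Of 257 annotated protein-coding genes within 20 kb of a chromosome end, 161 had a row, with a median of 21.6 RPKM, against 4967 of 5745 elsewhere, with a median of 23.5 RPKM. Across 5128 protein-coding genes the Spearman correlation of annotated length with RPKM was -0.13, and -0.10 over the 4994 that encode no cytosolic ribosomal protein. The median RPKM by quartile of length, from short to long, was 29.0, 28.5, 22.6 and 18.8. Between neighbouring genes the Spearman correlation of RPKM was 0.13 for 1130 divergent pairs, 0.06 for 2137 tandem pairs and 0.01 for 1153 convergent pairs. All these correlations are across genes of the same averaged column, and genes are not independent replicates.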
